A study of Danio rerio with 6 samples.

Results

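Cytochrome P450 (CYP) genes outside the CYP1 family were examined in whole zebrafish embryos treated with Tan I (Tanshinone I), a lipid-soluble diterpene of Salvia miltiorrhiza, or with its solvent DMSO. The members were all rows of the gene table whose symbol begins with cyp and a digit, apart from the CYP1, CYP26 and CYP51 genes, whose values averaged 10 or more across all 6 libraries. Of the 21317 rows, 74 carried such a symbol. The exclusions took away 8 of them and the minimum mean took away 1, which left 65 members among the 20836 genes tested. The lowest mean of any row was 7.536, so P450 genes with lower means were not in the gene table. The row left out by the minimum was cyp2x6, with a mean of 9.001, and the members just inside it were cyp2k6 with 10.0, cyp4f3 with 12.03 and cyp19a1b with 13.2. By family number, 36 members belong to CYP2, 5 to CYP3, 4 each to CYP4, CYP27 and CYP46, 2 each to CYP7, CYP11 and CYP17, and 1 each to CYP8, CYP19, CYP20, CYP21, CYP24 and CYP39.

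P450 enzymes hold a heme and insert an oxygen atom from molecular oxygen into their substrates, with electrons that reach them from a reductase. The families with low numbers are mostly known for the oxidation of drugs, other foreign chemicals and fatty acids in liver and intestine, and in fish, as in mammals, CYP2 is the largest of them and lies partly in tandem arrays of related genes. Families with higher numbers mostly make or break down endogenous molecules, among them bile acids, vitamin D, steroid hormones and the cholesterol of the brain.

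Both groups were Tg(c-mybhyper:GFP) embryos, a line with hyperactive c-myb that serves as a model of expanded myelopoiesis, and both were collected at 72 hpf (hours post-fertilization). The Tan I group was kept in 60 µM Tan I from 30 hpf and the DMSO group in DMSO over the same time, with 3 libraries in each. How many embryos a library held, and whether libraries came from separate clutches, was not stated. The label gives the tissue as embryonic cells, while the RNA came from whole embryos. Markers of liver, intestine, exocrine pancreas, pronephros, radial glia and skeletal muscle that were in the gene table had reads in every library. For liver 11 of 12 listed markers were in it, and for exocrine pancreas 9 of 10. In such bulk RNA, fewer cells of a type and less RNA per cell cannot be told apart. Values are normalized read counts, that is, reads per gene divided by the size factor of the library, and they are not corrected for gene length. The reads recovered from them numbered between 15874701 and 24932190 per library, with the Tan I libraries the 3 deepest. A log2 fold change is Tan I minus DMSO on log2(value + 1), with its standard error (SE), and a gene was called where the Benjamini-Hochberg adjusted p of limma over all tested genes was under 0.05.

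Of the 65 members, 14 rose and 1 fell under Tan I. The largest increases were those of cyp2k18, the cyp2y3 row ENSDARG00000068493, and cyp3a65, the counterpart of the human CYP3A enzymes that oxidise many drugs in liver and intestine. The gene that fell was cyp7a1, the rate-limiting enzyme of bile acid synthesis. The 15 called members were 23.1% of the members, beside 2.57% of all tested genes. Among all tested genes 2.07% were called higher and 0.504% lower. The counts of called partner genes and tissue markers given below also stand beside these shares. In lists that short, few or no calls would be expected at 2.57%. Values of the 2 groups did not overlap for 25 members, or 38.5%, with Tan I above DMSO in 23 and below in 2, and the groups did not overlap for 21.1% of all tested genes. The thresholds stated in the study were a p no higher than 0.05 and a log2 fold change of 0.25 or more in either direction. The study tested with DESeq2, while here these thresholds were applied to the limma fit. In that fit 26 members passed them, or 40.0%, of which 24 were higher and 2 lower, beside 11.3% of all tested genes. A log2 fold change above 0 was found for 46 members, or 70.8%, beside 48.5% of all tested genes, and the median was 0.22 for the members and -0.0067 for all tested genes.

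**Figure D1:**
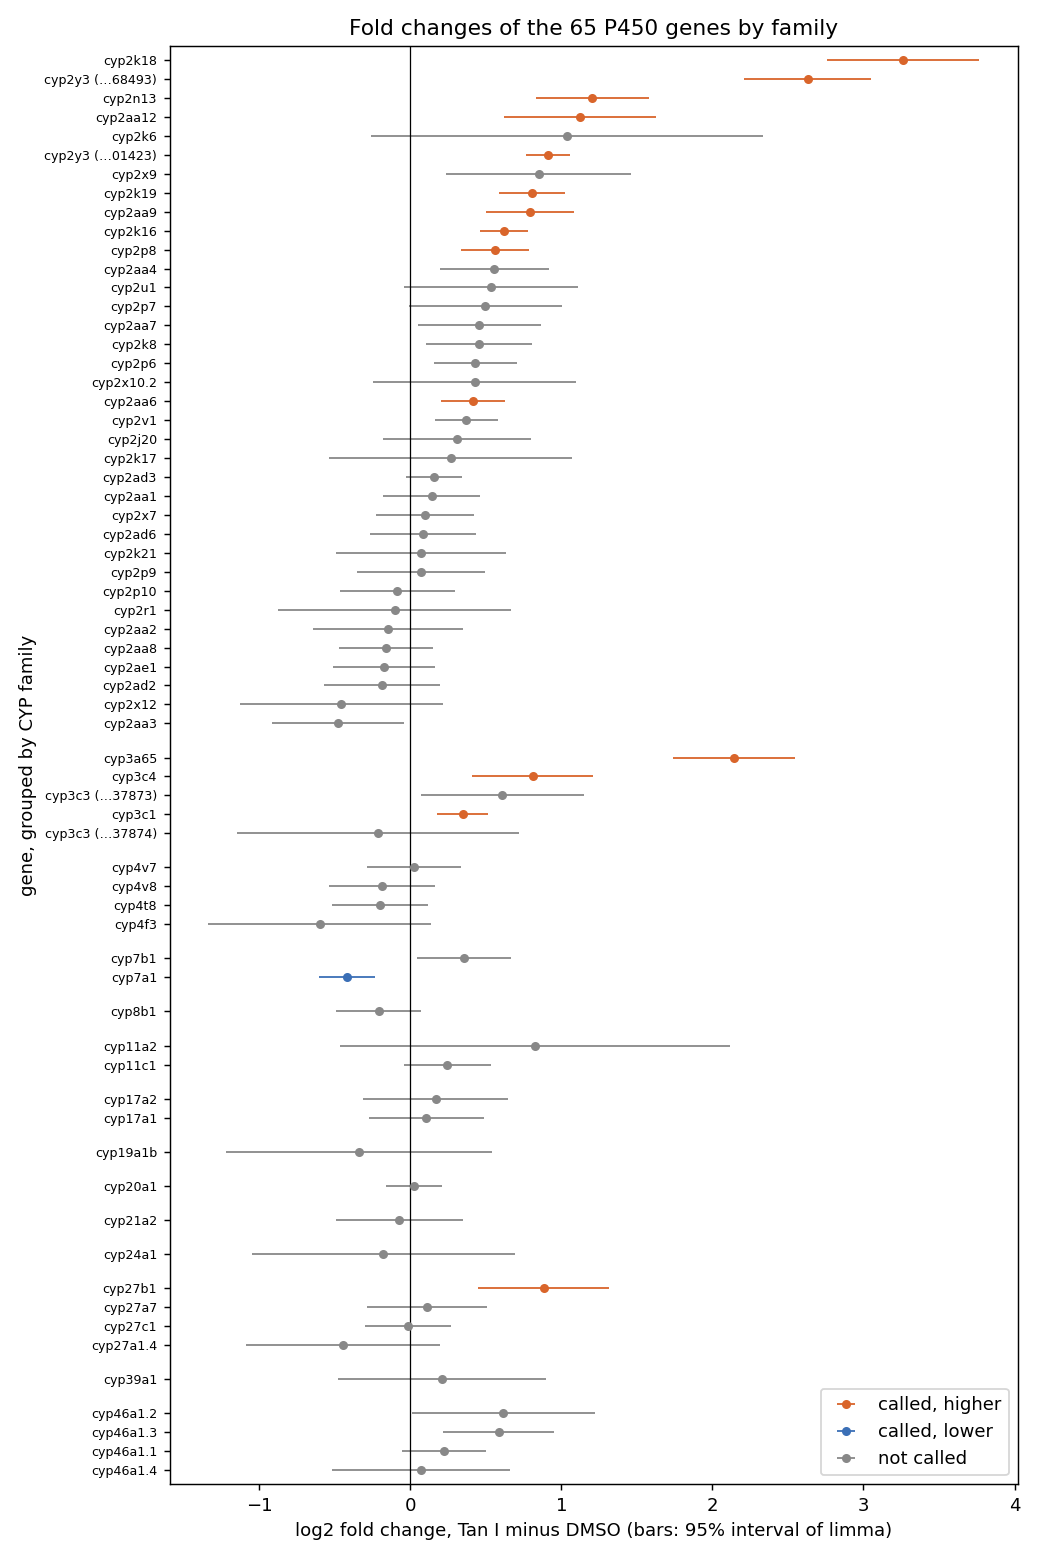
Log2 fold change of Tan I against DMSO for each of the 65 P450 genes outside CYP1, grouped by CYP family, with 95% intervals from limma and called genes marked. The called genes lie mostly in CYP2 and CYP3, from 0.35 for cyp3c1 to 3.26 for cyp2k18, and cyp7a1 at -0.42 is the called gene below 0.

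Of the 14 families, 10 had no limma call. In families 2 to 4, 13 of 45 members rose, and in the families with higher numbers 1 of 20 rose and 1 fell; the difference between these shares was not tested. The 10 families without a limma call hold 18 members, so the limma count in them is 0 by their choice. In these 18, DESeq2 and edgeR also called 0. At the 2.57% that limma called among all tested genes, few or no calls would be expected in 18 genes. At an unadjusted p under 0.05 the counts were 2 in limma, 1 in DESeq2 and 1 in edgeR.

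In CYP2, 10 of the 36 members rose, and the median log2 fold change of the family was 0.42. The steepest increase was that of cyp2k18. In DMSO its normalized read count was 42.8, 42.5 and 90.1, and in Tan I it was 609, 484 and 517, in the order of the replicate numbers, as in all such values that follow. The lowest Tan I library thus lay several-fold above the highest DMSO library. The mean went from 58.5 ± 27.4 (SD, n = 3) to 537 ± 64.5 (SD, n = 3). This was a log2 fold change of 3.26 ± 0.23 (SE, 95% interval 2.76 to 3.77, limma adjusted p = 4.31e-06).

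cyp2k18 belongs to an array of 7 neighbouring cyp2k genes, in which 3 rose and all 7 had a log2 fold change above 0, with a median of 0.62. The next gene in the array, cyp2k19, had values of 265, 253 and 311 in DMSO and 476, 505 and 467 in Tan I. cyp2k16, further along, gave 550.2, 527 and 553 in DMSO and 832, 857 and 816 in Tan I. For both genes the groups were wide apart and the replicates close together. The log2 fold changes were 0.81 ± 0.10 for cyp2k19 (limma adjusted p = 0.000570) and 0.62 ± 0.07 for cyp2k16 (limma adjusted p = 0.000385), and the interval of cyp2k18 lay above both of theirs. cyp2k8 was at 78.6, 86.2 and 74.5 in DMSO and 117, 123 and 91.2 in Tan I, without overlap, but its adjusted p was 0.200. The others, cyp2k6, cyp2k17 and cyp2k21, gave log2 fold changes of 1.04, 0.27 and 0.07 and were not called, and cyp2k6 rested on few reads, with 1 read in DMSO replicate 3.

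The symbol cyp2y3 stands on 2 rows, and both rose. The row ENSDARG00000068493, which a table of current gene names gives as si:zfos-411a11.2, had 46.2, 48.6 and 30.0 in DMSO and 289, 217 and 272 in Tan I. The row ENSDARG00000101423 had 1526, 1393 and 1538 in DMSO and 2758, 2703 and 2912 in Tan I. Neither row had any overlap between the groups. Their log2 fold changes were 2.63 ± 0.19 and 0.91 ± 0.07, with limma adjusted p of 5.67e-06 and 5.78e-06.

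The array that holds 9 cyp2aa genes and cyp2ae1 was mixed. In it 3 of the 10 genes rose, 6 had a log2 fold change above 0, and the median was 0.28. cyp2aa9 had 175, 195 and 166 in DMSO and 381, 279 and 279.6 in Tan I. cyp2aa12, at the end of the array, had 48.5, 31.6 and 30.0 in DMSO and 81.6, 94.6 and 64.5 in Tan I. cyp2aa6, its neighbour, had 235, 219.8 and 234 in DMSO and 320.3, 302 and 298 in Tan I. Each of these genes had every Tan I value above every DMSO value. The log2 fold changes were 0.79 ± 0.14 for cyp2aa9 (limma adjusted p = 0.00628), 1.12 ± 0.23 for cyp2aa12 (limma adjusted p = 0.0219) and 0.42 ± 0.10 for cyp2aa6 (limma adjusted p = 0.0414). The call of cyp2aa12 was lost without DMSO replicate 2 or 3 or Tan I replicate 1 or 2, with adjusted p up to 0.132, and that of cyp2aa6 was lost without any of the 6 libraries, with adjusted p up to 0.195. Near the other end of the same array cyp2aa3 had a log2 fold change of -0.48 with overlapping groups (limma adjusted p = 0.278), so the estimates within the array had both signs.

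**Figure D2:**
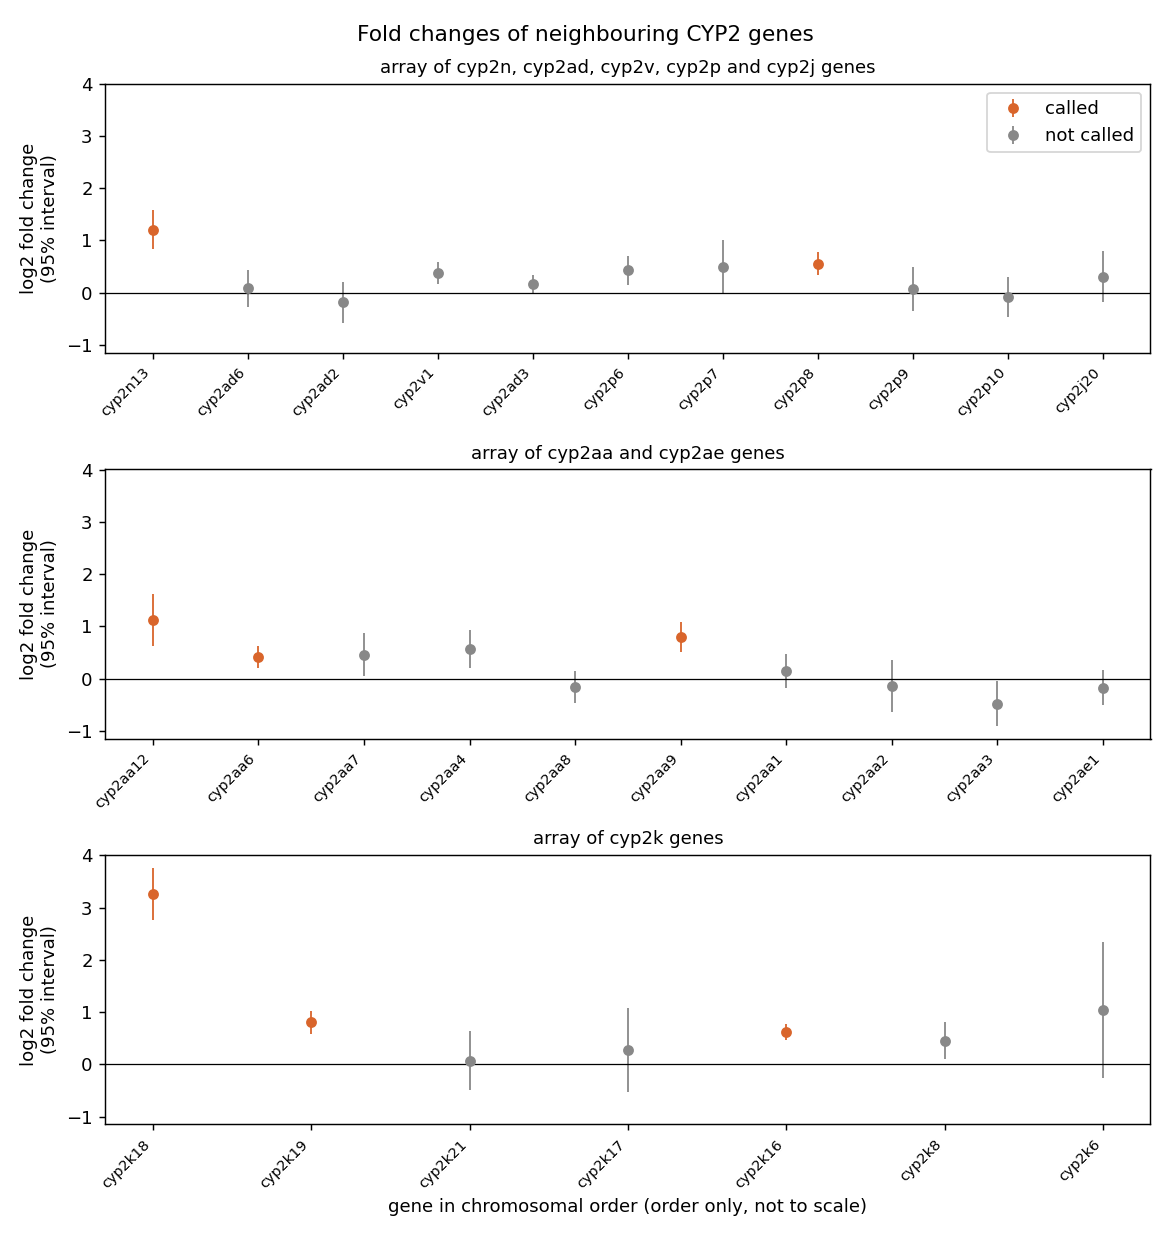
Log2 fold change of Tan I against DMSO, with 95% intervals from limma, of the P450 genes in the larger arrays of neighbouring genes. These hold 11 cyp2n, cyp2ad, cyp2v, cyp2p and cyp2j genes, 10 cyp2aa and cyp2ae genes, and 7 cyp2k genes, in order along each array. All 7 cyp2k genes are above 0 with cyp2k18 at 3.26, while the cyp2aa genes range from -0.48 for cyp2aa3 to 1.12 for cyp2aa12.

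A further array of 11 genes holds the cyp2n, cyp2ad, cyp2v, cyp2p and cyp2j members. Enzymes of the CYP2N and CYP2P subfamilies oxidise arachidonic acid in killifish, and CYP2J enzymes do so in mammals. In this array 2 genes rose and 9 had a log2 fold change above 0, with a median of 0.31. cyp2n13 was at 117, 74.1 and 85.6 in DMSO and at 183, 219 and 231 in Tan I, and cyp2p8 was at 221, 212 and 251 in DMSO and at 347, 318 and 342 in Tan I. Both had groups that did not overlap, with log2 fold changes of 1.21 ± 0.17 (limma adjusted p = 0.00170) and 0.56 ± 0.10 (limma adjusted p = 0.0118). The call of cyp2p8 was lost without DMSO replicate 2 or Tan I replicate 1, with adjusted p up to 0.0832. The groups were also apart for cyp2v1, at 362, 382 and 359 in DMSO and 539, 454 and 441 in Tan I, and for cyp2p6, at 162, 135 and 171 in DMSO and 223, 195 and 212 in Tan I, but their adjusted p was 0.0696 and 0.114. The 3 cyp2ad genes stayed between -0.19 and 0.16 on the log2 scale. The single CYP2J gene, cyp2j20, had a log2 fold change of 0.31 (limma adjusted p = 0.561).

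**Figure D3:**
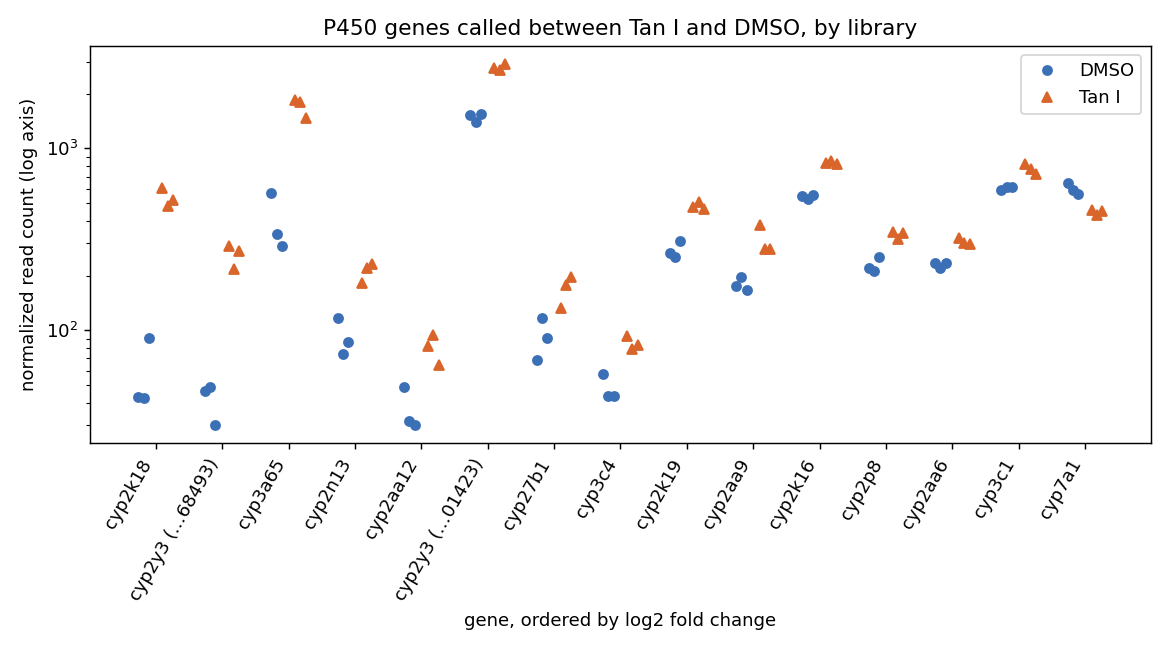
Normalized read counts of the 15 called P450 genes in each of the 3 DMSO and 3 Tan I libraries, on log axes. The 3 Tan I points lie above the 3 DMSO points in 14 of the genes and below them in cyp7a1.

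In CYP3, 3 of the 5 members rose. cyp3a65 had 569, 338 and 291 in DMSO and 1839.9, 1796 and 1469 in Tan I. DMSO replicate 1 was the highest of its group, and the lowest Tan I value was still above it by a wide margin. The mean went from 399 ± 149 (SD, n = 3) to 1701 ± 203 (SD, n = 3), and the log2 fold change was 2.14 ± 0.19 (SE, 95% interval 1.74 to 2.55, limma adjusted p = 2.85e-05). Of the 4 cyp3c rows, 3 had a log2 fold change above 0 and 1 below. The 3 above 0 were placed in an array. cyp3c1 had 593, 617 and 611 in DMSO and 822, 771 and 724 in Tan I, and cyp3c4 had 57.8, 43.7 and 43.4 in DMSO and 92.5, 78.6 and 83.5 in Tan I. The groups were apart in both, by 0.35 ± 0.08 (limma adjusted p = 0.0343) and 0.81 ± 0.19 (limma adjusted p = 0.0377). Each call was lost in 5 of the 6 fits without a library, and cyp3c1 was called without Tan I replicate 3 and cyp3c4 without DMSO replicate 1, with adjusted p elsewhere up to 0.138 and 0.162. The symbol cyp3c3 stands on 2 rows. Their log2 fold changes were 0.61 for the row in the array and -0.21 for the other, and neither was called. Current names give the other row as cyp3c2. Its place was not looked up under that name, so it may belong to the same array. Only uniquely mapped reads were kept by the authors, so near-identical copies in an array may have lost or exchanged reads, and the values of single CYP2 and CYP3 copies are uncertain to that extent.

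Some markers of the intestinal epithelium rose as well. Of 8 such markers 3 were called, all higher, and 8 had a log2 fold change above 0, from 0.03 to 0.86. The ileal gene fabp6, which is not in this list, was called lower, at -0.62. The 3 were anpepb, an aminopeptidase of the brush border, at 0.86, slc15a1b, a peptide transporter, at 0.69, and fabp1b.1, a fatty acid binding protein, at 0.66. DESeq2 called 5 of the 8 and edgeR 3, and in limma slc15a1b was not called without DMSO replicate 2, where its adjusted p was 0.0510. The summed normalized read count of the list was 21896 to 24229 in DMSO and 26466 to 29141 in Tan I, without overlap, and without apoa4b.1, its most abundant gene, it was 10819 to 12550.4 and 14809 to 16054. The called markers thus changed by less, in estimate, than cyp3a65, cyp2k18 and the cyp2y3 row ENSDARG00000068493, whose intervals begin above 0.86, and by about as much as several other called members. The part of these markers in the P450 values was not tested. Beside these genes, the CYP1 genes cyp1a, cyp1c2 and cyp1b1, known targets of the aryl hydrocarbon receptor, rose by 5.55, 2.97 and 1.68 on the log2 scale, and cyp1d1 had a log2 fold change of 0.07 (limma adjusted p = 0.845).

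CYP4 enzymes hydroxylate the far end of fatty acids, and human CYP4F3 inactivates leukotriene B in neutrophils. None of the 4 members was called by limma, DESeq2 or edgeR, and none had an unadjusted p under 0.05 in any of these tests. cyp4f3 was at 16.2, 14.6 and 13.3 in DMSO and 9.33, 8.43 and 10.3 in Tan I. Its groups did not overlap, but at these few reads the log2 fold change of -0.60 had a 95% interval of -1.34 to 0.14 (limma adjusted p = 0.435). cyp4v8, a relative of the human gene that is mutated in a crystalline retinal dystrophy, was at 186, 216 and 196 in DMSO and 168, 139 and 227 in Tan I, with a log2 fold change of -0.19 (limma adjusted p = 0.627). The remaining members, cyp4t8 and cyp4v7, were at -0.20 and 0.02.

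Among the enzymes that turn cholesterol into bile acids, cyp7a1 fell. It catalyses the first step of the classical pathway. It was at 646, 589 and 559 in DMSO and at 460.2, 429 and 451 in Tan I, so that each Tan I library lay below each DMSO library. The mean was 598 ± 44.1 (SD, n = 3) in DMSO and 447 ± 16.1 (SD, n = 3) in Tan I, and the log2 fold change was -0.42 ± 0.09 (SE, 95% interval -0.60 to -0.23, limma adjusted p = 0.0205). The call was lost without DMSO replicate 1 or 2 or Tan I replicate 2, with adjusted p up to 0.113. In the same family cyp7b1, the oxysterol hydroxylase of the alternative pathway, had 94.8, 99.6 and 120.1 in DMSO and 129.8, 129 and 142 in Tan I, in the other direction and without overlap, but was not called (0.35 ± 0.14, limma adjusted p = 0.261).

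The later bile acid enzymes were not called. cyp8b1, the sterol hydroxylase that leads to cholic-type bile acids, was at 449.6, 494 and 615 in DMSO and 373, 506 and 468 in Tan I, with overlap (-0.21, limma adjusted p = 0.481). Of the sterol side-chain hydroxylase genes, cyp27a7, which current names give as cyp27a1.1, had a log2 fold change of 0.11 and cyp27a1.4 one of -0.44. cyp39a1, an oxysterol hydroxylase, was at 15.03, 21.9 and 17.8 in DMSO and 23.3, 27.2 and 14.6 in Tan I, also with overlap. Of 11 further genes of bile acid handling, 1 was called higher and 1 lower. In this list 8 log2 fold changes were below 0 and 3 above, with a median of -0.23. The thresholds of the study were passed by 6 of the 11, with 2 higher and 4 lower, beside 11.3% of all tested genes. An export pump, abcc2, had a log2 fold change of 1.20 (limma adjusted p = 3.46e-05). The ileal bile acid binding protein fabp6 had a log2 fold change of -0.62 (limma adjusted p = 0.00726).

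Liver markers did not move as a group. Of 11 markers 6 had a log2 fold change above 0 and 5 below, with a median of 0.005, and 2 were called, both lower, namely the transferrin gene tfa at -0.73 and serpina1 at -0.34, while fabp10a, a liver fatty acid binding protein, was at -0.53 with an adjusted p of 0.0895. DESeq2 called 3 and edgeR 2. The summed normalized read count of the list was 53562 to 56919 in DMSO and 41495 to 47915 in Tan I, without overlap, but without tfa, its most abundant gene, the sums overlapped, at 29696 to 31862 in DMSO and 28035 to 33634 in Tan I. The call of serpina1 was lost without DMSO replicate 2 or 3 or Tan I replicate 2, with adjusted p up to 0.145. The other markers were on both sides of 0, from -0.24 for hp to 0.24 for fgg. The part of liver tissue in the cyp7a1 value was not tested.

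For vitamin D, the members cover activation and breakdown. cyp2r1, which makes the circulating form, was at 40.5, 83.8 and 109 in DMSO and 49.7, 52.4 and 114 in Tan I. cyp27b1, which makes the active hormone, was at 68.2, 117 and 91.2 in DMSO and 132, 178 and 196 in Tan I. cyp24a1, which inactivates the hormone and is itself a classical target of the vitamin D receptor, was at 2330.3, 1342 and 586 in DMSO and 1591, 1291 and 616 in Tan I. Only cyp27b1 of these 3 had groups that did not overlap. It rose by 0.88 ± 0.20 on the log2 scale (SE, 95% interval 0.45 to 1.32, limma adjusted p = 0.0369), a call lost without DMSO replicate 1 or 3 or Tan I replicate 2 or 3, with adjusted p up to 0.151.

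cyp24a1 differed far more between replicates than between groups. Its coefficient of variation was 61.6% in DMSO and 42.8% in Tan I, beside a median over the 65 members of 17.0% and 14.2%, and in both groups the library numbered 1 was the highest and that numbered 3 the lowest. The log2 fold change was -0.18 ± 0.40 with a 95% interval of -1.05 to 0.69 (limma adjusted p = 0.877), and it ran from -0.71 to 0.29 when single libraries were left out, so that at this spread a change of about 2-fold downward was within the interval. cyp2r1, singled out after its values were seen, had coefficients of variation of 44.6% and 50.7% with the libraries in the opposite order, and a log2 fold change of -0.10 (limma adjusted p = 0.924). The fourth CYP27 gene, cyp27c1, converts vitamin A to its red-shifting form and had values of 227, 205 and 216 in DMSO and 180.3, 214 and 251 in Tan I, a log2 fold change of -0.02. Of 12 partner genes of vitamin D and cholesterol handling, including the receptors vdra and vdrb and the carrier gc, limma, DESeq2 and edgeR called 0. This is near the share of 2.57% that limma called among all tested genes. An unadjusted limma p under 0.05 was found for 1 of them.

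**Figure D4:**
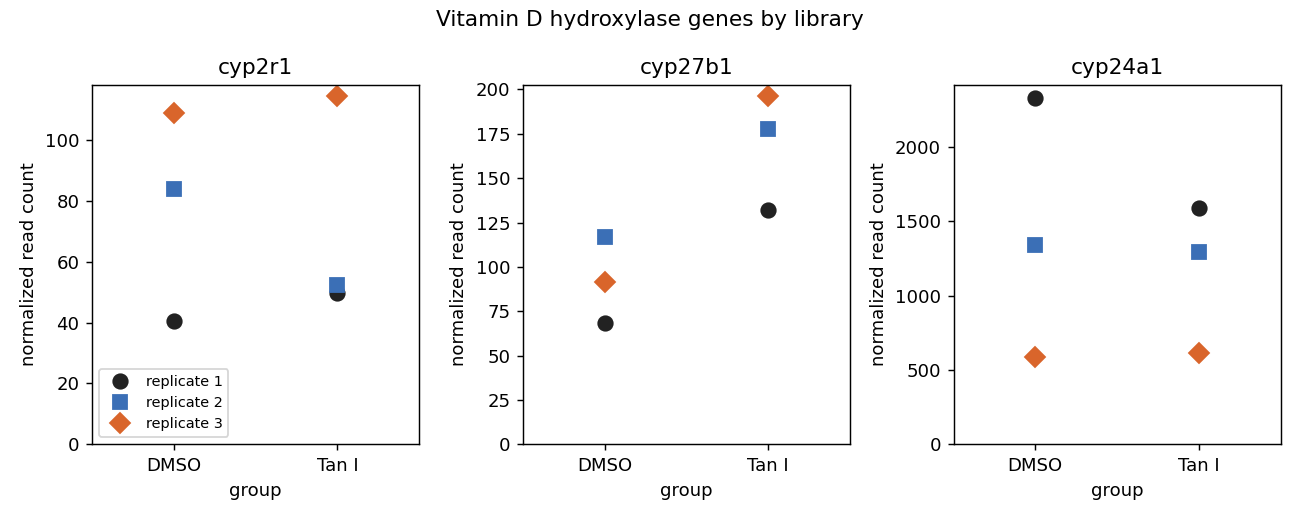
Normalized read counts of cyp2r1, cyp27b1 and cyp24a1 in the 3 DMSO and 3 Tan I libraries, each library marked by its replicate number, on linear axes. The groups are apart for cyp27b1 and overlap for cyp2r1 and cyp24a1, whose values run from 586 to 2330.3 within DMSO.

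The 4 cyp46a1 genes, which lie in an array, are related to the human enzyme that removes cholesterol from neurons. All 4 had a log2 fold change above 0, from 0.07 to 0.62, and 2 had an unadjusted limma p under 0.05, but limma, DESeq2 and edgeR called 0 of them. cyp46a1.3 was at 98.3, 109 and 146 in DMSO and 191, 192 and 145 in Tan I, with Tan I replicate 3 inside the range of DMSO (0.59 ± 0.17, limma adjusted p = 0.102). Of 7 radial glia markers 1 was called, gfap at 0.26, a call kept only without Tan I replicate 1 among the fits that left out 1 library, and their summed normalized read count overlapped between the groups.

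No enzyme of steroid hormone synthesis was called by limma, DESeq2 or edgeR, and none of these members had an unadjusted p under 0.05. cyp11a2 cleaves the side chain of cholesterol at the start of the pathway, and was at 2.31, 21.9 and 20.0 in DMSO and 18.7, 22.5 and 18.1 in Tan I. The low value of DMSO replicate 1 rested on 2 reads, and without that library the log2 fold change of 0.82 became -0.09. cyp11c1, the last enzyme of cortisol synthesis, was at 176, 163 and 131 in DMSO and 180.3, 187 and 186 in Tan I, a narrow separation (0.25 ± 0.13, limma adjusted p = 0.410). The cortisol enzyme cyp21a2 was at 90.2, 65.6 and 65.6 in DMSO and 65.3, 61.8 and 82.6 in Tan I, and the steroid hydroxylase cyp17a1 was at 57.8, 78.9 and 71.2 in DMSO and 69.2, 74.9 and 78.3 in Tan I. Both overlapped between groups, with log2 fold changes of -0.07 and 0.11, and its relative cyp17a2, at 42.8, 48.6 and 40.04 in DMSO and 45.1, 63.7 and 41.3 in Tan I, had a log2 fold change of 0.17. cyp19a1b, the brain aromatase that makes estrogen in radial glia, was at 8.09, 20.6 and 16.7 in DMSO and 14.8, 10.3 and 8.60 in Tan I, too few reads for a narrow interval (-0.34, 95% interval -1.22 to 0.54). Of 14 partner genes of steroid synthesis, 1 was called, the hydroxysteroid dehydrogenase gene hsd20b2. It rose by 0.58 on the log2 scale (limma adjusted p = 0.0329). This call was kept only without DMSO replicate 3 among the fits that left out 1 library, with adjusted p elsewhere up to 0.175.

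cyp20a1, an orphan enzyme without an established substrate, was at 528, 469.9 and 479 in DMSO and 484, 498 and 519.7 in Tan I. The groups overlapped, and the log2 fold change was 0.02 with a 95% interval of -0.16 to 0.21 (limma adjusted p = 0.921).

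P450 enzymes work with electron donors, and 3 of 13 genes of P450 electron transfer rose. The electron carrier cyb5a was at 944, 912 and 1059 in DMSO and 1812, 2208 and 2468 in Tan I, and the reductase porb was at 1853, 1520.3 and 1544 in DMSO and 2237, 2205 and 2137 in Tan I. The groups were apart for both, with log2 fold changes of 1.14 (limma adjusted p = 3.50e-05) and 0.43 (limma adjusted p = 0.0123). The call of porb was lost without DMSO replicate 2 or 3 or Tan I replicate 2, with adjusted p up to 0.108. pgrmc1, a heme-binding partner of P450 enzymes, rose by 0.35 (limma adjusted p = 0.0301), a call kept only without DMSO replicate 3 or Tan I replicate 1 among such fits, with adjusted p elsewhere up to 0.177, and the other reductase gene, pora, had a log2 fold change of 0.09 (limma adjusted p = 0.655).

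Of 23 receptors and transcription factors that control P450 genes, 1 rose and 1 fell, and both were aryl hydrocarbon receptors, ahr2 at 0.86 (limma adjusted p = 7.26e-06) and ahr1b at -0.37 (limma adjusted p = 0.0436). The call of ahr2 was kept without any single library, while that of ahr1b was lost without any of the 6, with adjusted p up to 0.239. edgeR called 3 of the list, both of these and hnf4g, which had a log2 fold change of 0.54 in limma and was not called there (limma adjusted p = 0.0531). The pregnane X receptor nr1i2, a main regulator of CYP3A genes in mammals, had a log2 fold change of 0.40 with an adjusted p of 0.0825. An unadjusted limma p under 0.05 was found for 7 of the 23 genes. The thresholds of the study were passed by 6 of them, with 5 higher and 1 lower, beside 11.3% of all tested genes. Of 13 genes of eicosanoid metabolism, which share arachidonic acid with several CYP2 and CYP4 enzymes, 2 were called, both higher. These were the cyclooxygenase ptgs2b at 1.19 (limma adjusted p = 0.0161) and the epoxide hydrolase ephx1 at 0.39 (limma adjusted p = 0.0438). The thresholds of the study were passed by 8 of the 13, all higher, beside 11.3% of all tested genes. The median log2 fold change of the list was 0.30. The call of ephx1 was lost without any of the 6 libraries, with adjusted p up to 0.230, and that of ptgs2b without DMSO replicate 1 or 2 or Tan I replicate 2, with adjusted p up to 0.0692.

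The members differed in how firmly they were called. All 15 had groups that did not overlap, but with 3 libraries per group a call makes this likely by itself. All 15 were also called by DESeq2, which called 16 members, and by edgeR, which called 15. Of the 536 genes that limma called among all tested genes, DESeq2 also called 526 and edgeR 531. Calls shared between the tests were thus common to nearly all called genes. The genes cyp2k18, cyp2k16, cyp2k19, both cyp2y3 rows and cyp3a65 were called in every alternative that tested them. cyp2n13 and cyp2aa9 were called without any single library and missed the threshold in limma without its mean-variance trend, where their adjusted p was 0.0520 and 0.0843. The number of called members went from 15 to 9 without DMSO replicate 2 or Tan I replicate 2, and to 6 without the trend. With the reads of all libraries thinned to the smallest total, which removes the difference in depth between the groups, 13 of the 15 were called, and cyp2aa6 and cyp3c4 had adjusted p of 0.0938 and 0.0710. Markers of the remaining tissues gave no calls by limma in exocrine pancreas (9 markers), pronephros (9 markers) and skeletal muscle (8 markers). An unadjusted limma p under 0.05 was found for 3, 3 and 1 of them. In exocrine pancreas 7 log2 fold changes were below 0, with all 3 of these markers lower, down to -1.39 for ela3l (limma adjusted p = 0.0710). In pronephros 8 were above 0, with all 3 higher, up to 0.47. DESeq2 called 1 pronephros marker and edgeR 0 in these lists.

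**Figure D5:**
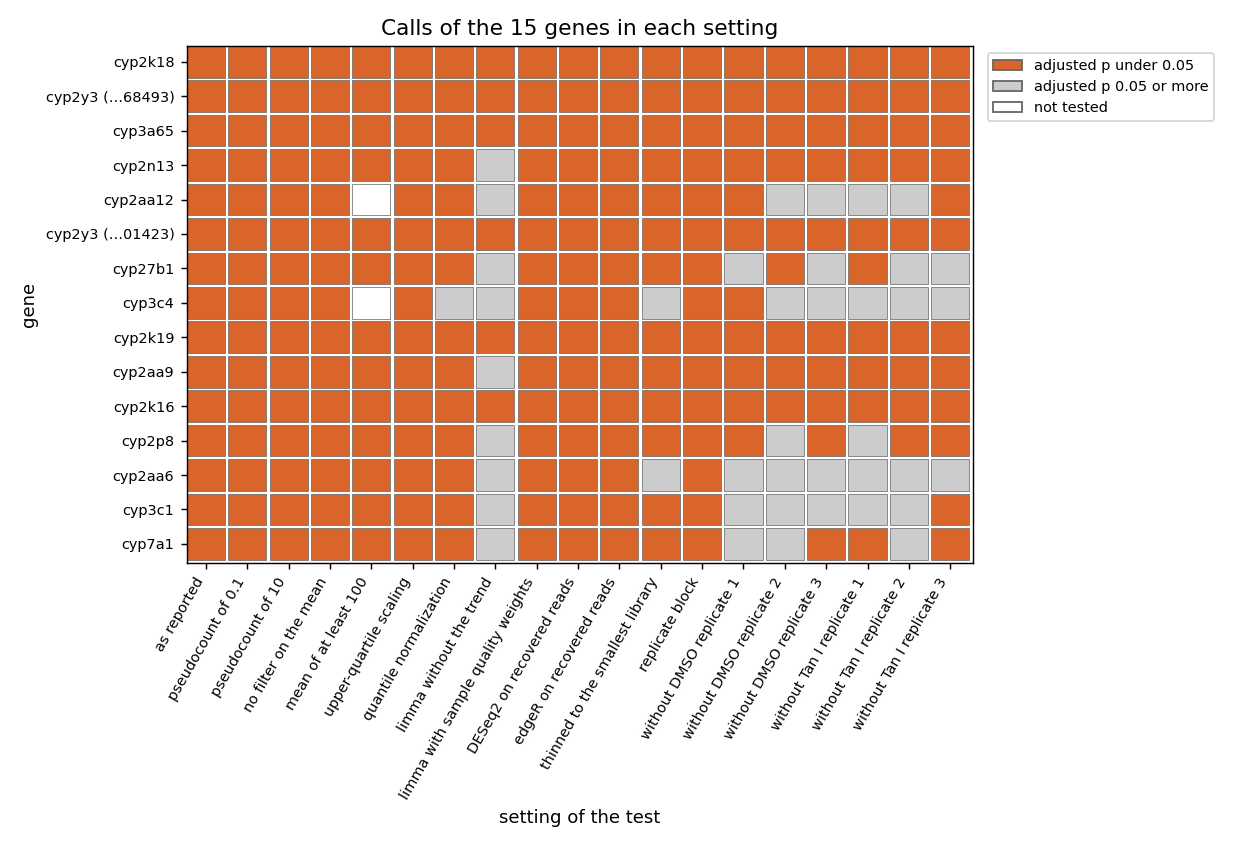
For each of the 15 called P450 genes, a grid of the alternative settings in which its limma, DESeq2 or edgeR adjusted p was under 0.05. The 6 genes cyp2k18, cyp2k16, cyp2k19, cyp3a65 and both cyp2y3 rows are called in every alternative that tested them, and cyp2aa6 loses its call without any of the 6 libraries.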

How the data were processed

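Total RNA of whole embryos was sequenced in 3 DMSO and 3 Tan I libraries. According to the methods and the labels, the authors aligned the reads to GRCz11 with STAR, removed reads that mapped to several places, counted reads per gene with featureCounts and ran DESeq2; tool versions and the use of strand in counting are not given in the sources used here, so genes that overlap another gene or its antisense partner are uncertain. The deposited signal values are gene counts scaled by the authors with a single size factor for each library. Each library's values were whole multiples of 1 step, and dividing by it gave whole reads for 100% of values (within 0.01 of a whole number). The 5 columns of the authors' own comparison (log2 fold change, its standard error, test statistic, p-value and adjusted p-value) were not used.

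Genes with a mean of at least 10 were compared with limma 3.58.1 (lmFit, eBayes with trend, no covariates, 2-sided) in R 4.3.3 on log2(value + 1), a scale that makes changes of genes with few reads look smaller, with Benjamini-Hochberg adjustment over all 20836 genes. Alternatives were pseudocounts of 0.1 and 10, no minimum mean or one of 100, upper-quartile and quantile scaling, no trend, sample quality weights, DESeq2 1.42.0 and edgeR 4.0.16 (quasi-likelihood, TMM) on the recovered reads, reads thinned to the smallest library, a replicate block, and the omission of each library in turn. As the labels do not say that libraries came from separate clutches, p-values measure the spread between these libraries, which may be technical.

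The members, the lists of partner genes and tissue markers, and the tests were chosen with earlier results of these data known. Values per library are given for called members, for the member with the smallest p and the one with the highest mean in each family, and for up to 10 members with groups apart at p of at most 0.05. Of the lists, called genes and up to 2 with the smallest p were named. The genes pora, nr1i2, hnf4g, fabp10a, hp, fgg, vdra, vdrb, gc, apoa4b.1, cyp2r1 and cyp11a2 were added after their values were seen. Of the 65 gene IDs, 63 were in a table of current gene names. Neighbours were taken from the gene order of RefSeq on GRCz12tu, in which 57 members were found by their symbol in the gene table. Rows that share a symbol were placed only where the current name was the same, so arrays may lack members. Genes with at most 5 other protein-coding genes between them formed 6 arrays of 37 members. No coordinates are given because this build differs from that of the authors.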

Additional observations from a re-analysis of the deposited data

How the results depend on the processing

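Most values for the 32 P450 genes that the naming rule took, which leaves out cyp2r1 and cyp11a2, kept their direction and their side of the threshold over 18 alternatives: 508 did, 41 lost a call, 6 gained one and 12 changed sign. Without the mean-variance trend limma called 6 members (6 higher and 0 lower, with 2 lower at an unadjusted p under 0.05), 165 of all genes and 5 of the list genes, in place of 15, 536 and 16. Sample quality weights gave 984 calls over all genes. In these alternatives the cause was not tested.

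Leaving out single libraries gave 9 to 15 called members, with 9 to 14 higher and 0 to 1 lower, 213 to 709 calls over all genes, 7 to 18 over the lists, and 21 to 29 members past the thresholds of the study. The lowest counts of members came without DMSO replicate 2 or Tan I replicate 2 (9 each), and cyp7a1 was not called without DMSO replicate 1, DMSO replicate 2 or Tan I replicate 2, where limma had 3, 1 and 1 lower members at an unadjusted p under 0.05. These fits have fewer samples. The members cyp2v1, cyp2p6, cyp2aa4, cyp2x9 and cyp46a1.3 were called in at least 1 alternative and not in the main comparison.

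Without single libraries the sign changed for 21 of the 65 members, none of them called in the main comparison. Of these cyp11a2 lay farthest from 0, at 0.82, and ran from -0.09 to 1.31. For the genes of the naming rule the log2 fold change ran from -0.0164 to 0.29 for cyp17a2, from -0.0177 to 0.20 for cyp17a1, from -0.0079 to 0.0763 for cyp20a1, from -0.20 to 0.0789 for cyp21a2, from -0.71 to 0.29 for cyp24a1 and from -0.13 to 0.11 for cyp27c1. For cyp27c1 it was also 0.0344 with sample quality weights and 0.0008 with edgeR.

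The replicate numbers are not stated to pair libraries. Deviations from the group means of same-numbered libraries had correlations of 0.08, -0.03 and 0.21 over 20836 genes, and not every library correlated best with its own number. With the number as a replicate block, 18 members, 1093 of all genes and 30 list genes were called. Members with few reads, such as cyp4f3, cyp2k6, cyp11a2 and cyp19a1b, have wide intervals at this depth, so their values cannot tell a change from none.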
